A study of Mus musculus with 11 samples.

Results

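Fibroblast growth factors (FGFs), their receptors and an FGF carrier protein were followed across the MamBo mouse mammary carcinoma lines, which differ in whether they keep or lose HER2. The 9 genes were chosen by name, with earlier results of these data known. They comprise the receptors Fgfr1, Fgfr2, Fgfr3 and Fgfr4, the ligands Fgf1, Fgf2, Fgf7 and Fgf18, and the carrier Fgfbp1. All 9 were found among the 21846 genes of the count table. HER2-negative libraries held less Fgfr1 and Fgfbp1, and far more Fgf7, than HER2-positive ones. Fgfr3 was high in MamBo89 alone, and Fgf1 was high in a single library.

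FGFs signal through receptor tyrosine kinases at the cell surface, with heparan sulfate as a cofactor for most of them. Ligand binding brings receptor molecules together, and adaptor proteins then pass the signal to the MAPK cascade, which raises ETS factors and a set of feedback inhibitors. In the mammary gland, FGFR2 in its epithelial splice form receives FGF7 and FGF10 made by the stroma, and ESRP1 and ESRP2 are the splicing factors that favour that form. FGFR1 takes part in branching of the gland and is amplified in a share of human breast cancers.

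RNA was sequenced from 11 cultures of lines grown from mammary tumors of virgin female FVBhuHER2 mice, which carry human HER2 as a transgene. MamBo89 (n = 4, HER2 stable) came from a tumor called A, and MamBo43 (HER2 labile) from a tumor called B. MamBo38 (n = 4, HER2 loss) was established from HER2-negative tumors that MamBo43 cells gave rise to, so that every HER2-negative library goes back to tumor B. Trastuzumab, an antibody against HER2, was given at 30 µg/ml. MamBo89 replicates 1 and 2 were untreated, replicate 3 had trastuzumab for 30 days and then 30 days without it, and replicate 4 had trastuzumab for 60 days. Replicate 1 carries AG3 in its name and was taken as the clone that the study's methods list, since the other MamBo89 libraries are accounted for. MamBo43 was sequenced once untreated (n = 1) and after HER2 loss under trastuzumab at high seeding density (MamBo43 TRT, n = 2), with replicate 1 on the schedule of 30 days and 30 days without and replicate 2 on 60 days. In continuous trastuzumab culture of MamBo43, the study always still detected a small share of HER2-positive cells, with a few islets of polygonal cells after 60 days. MamBo43 TRT is counted as HER2-negative here, as in the study. MamBo38 replicates 1 and 2 were untreated, replicate 3 had 30 days and 30 days without, and replicate 4 had 60 days. The labels give no ages, and libraries of a group differ in treatment, schedule, subline or code, so that the spread between them holds these differences too. The sources used here do not say which libraries came from independent cultures, so p-values may measure partly technical spread.

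Levels are given as CPM, read counts brought to a common library size with edgeR's TMM method, at total counts of 17040454 to 27127662 per library, where 3 counts amount to 0.114 to 0.179 CPM. A gene counted as called where edgeR's quasi-likelihood test gave an adjusted p below 0.1 and the log2 fold change was 1 or more in size. With 1 untreated MamBo43 library, the fit assumed that this library varies as the other groups do. Of 7 epithelial markers, 6 exceeded 1 CPM in every MamBo89, untreated MamBo43 and MamBo43 TRT library, and none did in MamBo38, while Krt19 was at 0 or 1 count throughout. Their summed level was 2459 to 3893 CPM in MamBo89, 3280 in untreated MamBo43, 290 and 1778 in MamBo43 TRT, and 1.78 to 3.004 in MamBo38. The 9 fibroblast or mesenchymal markers summed to 121 to 189 CPM in MamBo89, 420 in untreated MamBo43, 7867 and 8615 in MamBo43 TRT, and 6605 to 7696 in MamBo38. The 5 basal or myoepithelial markers summed to 10.6 to 37.6 CPM in MamBo89, 27.1 in untreated MamBo43, 113 and 624 in MamBo43 TRT, and 8.31 to 26.6 in MamBo38. The 7 immune markers summed to 8.24 to 17.4 CPM in MamBo89, 2.0 in untreated MamBo43, 4.21 and 9.32 in MamBo43 TRT, and 30.9 to 51.8 in MamBo38, of which Cd68 made up 27.1 to 49.7 CPM, while Ptprc was at 0 or 1 count in all libraries. Of the MamBo38 libraries, 3 share a code in their names (replicates 1, 3 and 4), and the other 8 libraries carry another code.

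The promoters of Fgf7 and Fgfbp1 are shown because these 2 members differed most between the lines and in opposite directions. Each run holds the 250 bases just before the RefSeq start on GRCm38.p6, in the direction of transcription, with each CG dinucleotide, the site of DNA methylation in mammals, in capitals. The Fgf7 window is chr2:126034408-126034657 on the plus strand and the Fgfbp1 window is chr5:43981800-43982049 on the minus strand.
Fgf7: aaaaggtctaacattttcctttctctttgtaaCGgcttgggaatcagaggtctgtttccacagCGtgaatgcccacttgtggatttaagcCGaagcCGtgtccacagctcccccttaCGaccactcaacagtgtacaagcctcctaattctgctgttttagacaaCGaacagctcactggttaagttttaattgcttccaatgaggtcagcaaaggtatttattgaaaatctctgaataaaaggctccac
Fgfbp1: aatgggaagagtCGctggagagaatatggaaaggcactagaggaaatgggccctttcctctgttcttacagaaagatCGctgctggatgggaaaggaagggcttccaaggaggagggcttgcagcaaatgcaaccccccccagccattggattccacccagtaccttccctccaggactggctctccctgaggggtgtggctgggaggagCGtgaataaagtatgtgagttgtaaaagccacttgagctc
The Fgf7 window held 6 CG dinucleotides at 43.6% G and C, and the Fgfbp1 window held 3 at 53.6%. Over all 32851 RefSeq windows of this length the median was 6, with quartiles at 2 and 16. Of the 9 members, 7 had an entry, with 8 windows in all, since Fgfr3 has 2 starts. The other windows held 2 CG dinucleotides for Fgfr2, 15 for Fgfr4, 19 and 24 for Fgfr3, 20 for Fgf2 and 37 for Fgf18. On both strands, the letters CACCTG (an E-box), TGANTCA (an AP-1 motif) and TATAAA were searched. None of the 8 windows held any of them, against 17.2%, 6.75% and 12.4% of all windows, which says only that these letters are not in these windows.

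Fgfr1 (ENSMUSG00000031565, mouse chromosome 8, 25513654 to 25575718 on GRCm38) was the main FGF receptor in all lines. Its level was 700.5, 1020, 965 and 1237 CPM in MamBo89 and 1292 in untreated MamBo43. It was 311 and 254 CPM in MamBo43 TRT, and 287, 425, 334 and 360 in MamBo38. All 5 HER2-positive libraries lay above all 6 HER2-negative ones, and the AG3 library was the lowest of the HER2-positive ones. Against MamBo89, Fgfr1 in MamBo38 fell by 1.48 ± 0.19 (SE) on the log2 scale (adjusted p = 6.31e-05). Within MamBo43, Fgfr1 fell by 2.20 ± 0.31 in the treated cells (adjusted p = 0.000793). The upper 2 groups, untreated MamBo43 and MamBo89, differed by 0.40 ± 0.29 (adjusted p = 0.369). The single untreated MamBo43 library lay above every MamBo89 library, and its spread is taken from the other groups. The lower 2, MamBo43 TRT and MamBo38, differed by -0.32 ± 0.23 (adjusted p = 0.333). Neither pair was called. Since these are bulk cultures, fewer cells of a type and less RNA per cell cannot be told apart for this or any other member. The part of the epithelial, mesenchymal, basal and immune marker levels given above, some of which move with the same groups, was not tested.

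Fgfr2 (ENSMUSG00000030849, chromosome 7, 130162451 to 133123350), the receptor of FGF7 and FGF10 in epithelium, was low, and it was highest in MamBo43. Its level was 13.2 CPM in untreated MamBo43, 6.71 and 7.79 in MamBo43 TRT, 1.12, 1.75, 0.932 and 1.47 in MamBo89, and 0.913, 0.946, 0.596 and 0.531 in MamBo38. Both MamBo43 groups lay above every library of the other lines, whether HER2 was present or lost. Untreated MamBo43 exceeded MamBo89 by 3.32 ± 0.38 on the log2 scale (adjusted p = 0.000234), and MamBo43 TRT exceeded MamBo38 by 3.28 ± 0.34 (adjusted p = 0.000112). The drop from untreated to treated MamBo43, -0.87 ± 0.46, was not called (adjusted p = 0.176). MamBo38 stood at -0.83 ± 0.31 against MamBo89 with an adjusted p of 0.0362, short of the fold change asked for, and these 2 groups overlapped. The levels in MamBo38 rest on 10 to 19 counts per library. The annotated Fgfr2 gene includes a transcript that shares exons with Ctbp2, and 2.19% of its 75-base windows also occur there.

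Fgfr3 (ENSMUSG00000054252, chromosome 5, 33721674 to 33737068), which serves as a receptor for several FGFs in bone and epithelia, was a MamBo89 gene. Its level was 8.52, 15.3, 15.7 and 16.9 CPM in MamBo89, with the AG3 library lowest. In all other libraries it lay between 0.343 and 0.673 CPM, or 6 to 14 counts, untreated MamBo43 included. The fold change was -4.83 ± 0.32 in MamBo38 (adjusted p = 6.04e-07), -4.89 ± 0.60 in untreated MamBo43 (adjusted p = 0.000356) and -5.34 ± 0.46 in MamBo43 TRT (adjusted p = 7.87e-06), each against MamBo89 on the log2 scale. Among the 3 low groups, MamBo38 and untreated MamBo43 differed by 0.07 ± 0.52 (adjusted p = 0.932), MamBo43 TRT and untreated MamBo43 by -0.44 ± 0.58 (adjusted p = 0.590), and MamBo43 TRT and MamBo38 by -0.51 ± 0.43 (adjusted p = 0.398). Untreated MamBo43, which has HER2, was as low as the HER2-negative libraries. Tumor A and the MamBo89 line are the same 4 libraries and cannot be told apart. A part of its exons, with 9.96% of its windows, overlaps the antisense gene G630022F23Rik, and the library kit keeps no strand. Fgfr4 (ENSMUSG00000005320, chromosome 13, 55152640 to 55168759) had 0 to 5 counts in every library, did not pass the filter and was not tested.

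**Figure D1:**
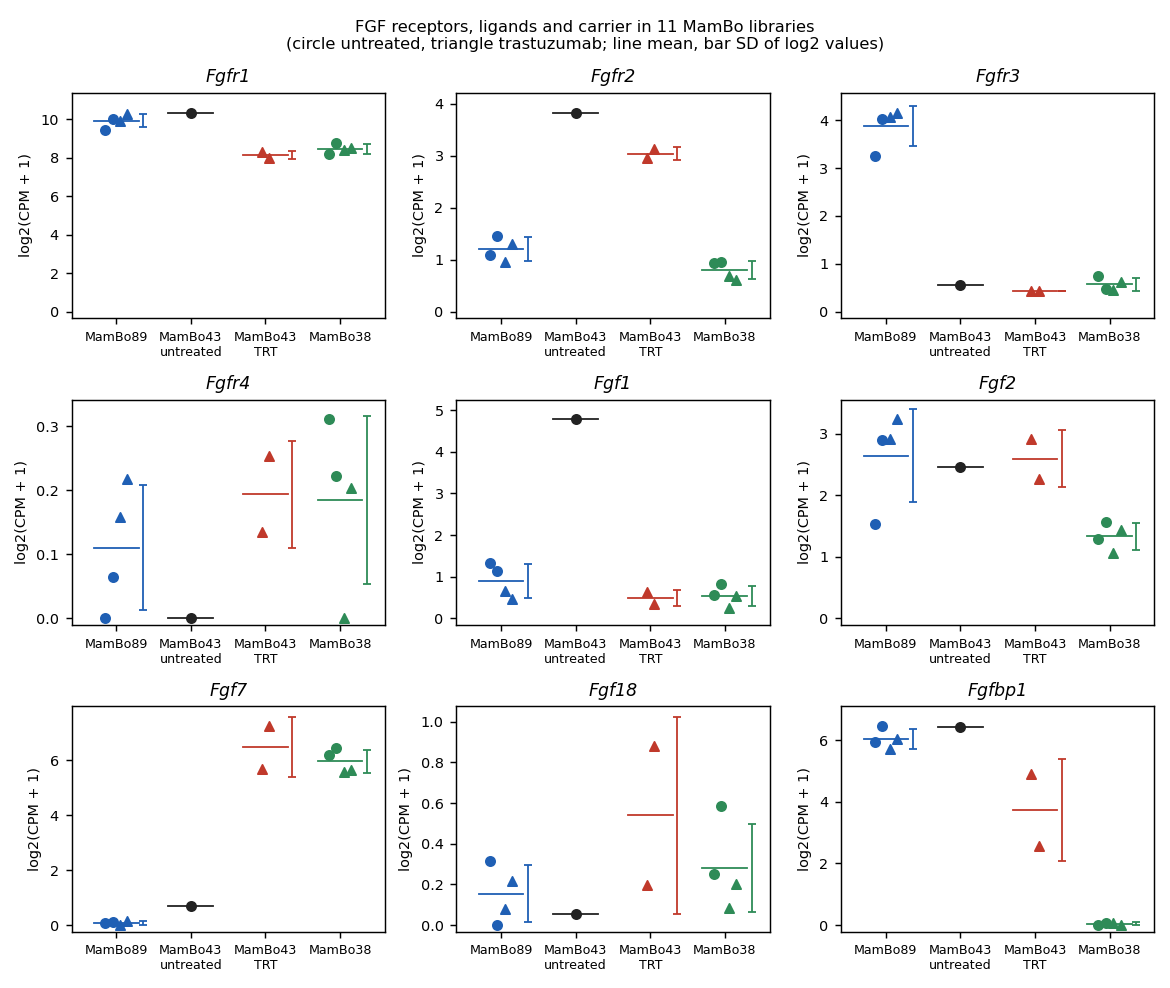
Level of the 9 genes as log2(CPM + 1) in each library, in 4 groups (circles untreated, triangles trastuzumab, line the group mean, bar the SD of the log2 values; the vertical scale differs between panels). Fgf7 and Fgfbp1 run in opposite directions across the groups, Fgfr3 is high in MamBo89, and the untreated MamBo43 library stands apart for Fgf1.

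Fgf7 (ENSMUSG00000027208, chromosome 2, 126034658 to 126091185) is the keratinocyte growth factor that stroma normally supplies to epithelium. It was nearly absent from the HER2-positive libraries and abundant in the HER2-negative ones. MamBo89 held 1, 2, 0 and 2 counts (0.0487, 0.0921, 0 and 0.109 CPM) and untreated MamBo43 held 16 counts (0.626 CPM). MamBo43 TRT reached 50.9 and 150 CPM, and MamBo38 72.4, 85.5, 46.8 and 49.2 CPM. No HER2-negative library overlapped with a HER2-positive one, and the MamBo43 TRT library with the highest Fgf7 was the one kept in trastuzumab for 60 days. MamBo38 exceeded MamBo89 974-fold, with a counting interval of 417 to 3000, as the 4 MamBo89 libraries together held 5 counts (adjusted p = 2.71e-07). Within MamBo43, Fgf7 rose by 7.31 ± 0.88 on the log2 scale (adjusted p = 0.000353), and by 6.33 without replicate 2 of MamBo43 TRT. The next pair in order, MamBo43 TRT and MamBo38, differed by 0.66 ± 0.38 (adjusted p = 0.224). That value was 1.25 without replicate 1 of MamBo43 TRT and -0.32 without replicate 2. Untreated MamBo43 lay above MamBo89 by a ratio of 9.74 with a counting interval of 3.41 to 34.0 (adjusted p = 0.0571), a call lost without the AG3 library (adjusted p = 0.115).

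Fgf1 (ENSMUSG00000036585, chromosome 18, 38838673 to 38929472), a ligand that binds all FGF receptors, was high in untreated MamBo43 alone. That library held 26.4 CPM from 676 counts. The other libraries lay between 0.179 and 1.51 CPM, with MamBo89 at 1.51, 1.20, 0.583 and 0.381, MamBo43 TRT at 0.539 and 0.268, and MamBo38 at 0.480, 0.779, 0.179 and 0.456. Untreated MamBo43 exceeded MamBo89 by 4.83 ± 0.61 on the log2 scale (adjusted p = 0.000401), and Fgf1 fell by 6.04 ± 0.83 in MamBo43 TRT (adjusted p = 0.000683). Against untreated MamBo43, MamBo38 stood at -5.78 ± 0.63 (adjusted p = 5.06e-05). Each of these 3 differences rests on that single untreated library. MamBo38 and MamBo89 differed by -0.96 ± 0.52 (adjusted p = 0.128), a value that was called without MamBo38 replicate 2 (-1.27, adjusted p = 0.0706) or without MamBo89 replicate 4 (-1.21, adjusted p = 0.0545). With the code of the library name as a term, where MamBo38 rests on replicate 2 alone, it was -0.245.

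Fgf2 (ENSMUSG00000037225, chromosome 3, 37348346 to 37410108), the basic FGF, which leaves cells without a signal peptide, was lowest in MamBo38. MamBo89 held 1.90, 6.40, 6.53 and 8.38 CPM with the AG3 library lowest, untreated MamBo43 4.50, MamBo43 TRT 6.57 and 3.80, and MamBo38 1.44, 1.95, 1.07 and 1.71. Only the AG3 library of MamBo89 fell within the range of MamBo38. Against MamBo89, MamBo38 stood at -1.91 ± 0.43 on the log2 scale (adjusted p = 0.00296), and MamBo43 TRT exceeded MamBo38 by 1.74 ± 0.50 (adjusted p = 0.0244), a call lost without MamBo43 TRT replicate 1 (adjusted p = 0.199). Against untreated MamBo43, MamBo38 stood at -1.54 ± 0.61 (adjusted p = 0.0634), lost without MamBo38 replicate 1 (adjusted p = 0.110) or 3 (adjusted p = 0.119). With the code of the library name as a term, MamBo38 rests on its replicate 2 alone. The 3 values were then smaller in size, at -1.57, 1.40 and -1.20. Nudt6, which lies antisense to Fgf2 and covers part of the 9.93% of its windows that are shared, ranged from 2.0 to 6.73 CPM, and its reads cannot be told apart from those of Fgf2 there.

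Fgf18 (ENSMUSG00000057967, chromosome 11, 33117430 to 33147400), a ligand of the FGF8 subfamily, stayed near the floor, with 22 counts (0.844 CPM) in MamBo43 TRT replicate 2 and 0 to 9 counts in the other libraries. It was called in none of the 6 pairs of groups by edgeR, and MamBo43 TRT stood at 2.06 ± 1.01 against MamBo89 on the log2 scale (adjusted p = 0.108). Without the AG3 library that value was called (2.77, adjusted p = 0.0503).

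Fgfbp1 (ENSMUSG00000048373, chromosome 5, 43978858 to 43981779) is an epithelial protein that carries FGFs away from heparan sulfate. It was present in the HER2-positive libraries and at 0 or 1 count per library in MamBo38. MamBo89 held 60.7, 86.7, 51.0 and 65.5 CPM and untreated MamBo43 84.7. MamBo43 TRT held 28.7 and 4.87 CPM, with the lower value after 60 days of trastuzumab, and MamBo38 held 0, 1, 1 and 0 counts. The treated MamBo43 libraries thus lay between the HER2-positive libraries and MamBo38 with no overlap. MamBo89 exceeded MamBo38 2741-fold with a counting interval of 758 to 22640 (adjusted p = 1.27e-06). MamBo43 TRT exceeded MamBo38 628-fold with an interval of 173 to 5197 (adjusted p = 7.23e-05). On the log2 scale the latter difference was 9.10, with 7.33 without MamBo43 TRT replicate 1 and 9.88 without replicate 2. Within MamBo43, Fgfbp1 fell by 2.34 ± 0.70 on the log2 scale under trastuzumab (adjusted p = 0.0283), with values of -4.15 without replicate 1 and -1.56 without replicate 2. Untreated MamBo43 and MamBo89 differed by 0.36 ± 0.64 (adjusted p = 0.742). The summed epithelial markers were also lower in MamBo43 TRT replicate 2 (290 CPM) than in replicate 1 (1778 CPM), and their part in the Fgfbp1 difference was not tested.

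The pairs of groups were then compared for the 9 genes together, beside the share of all genes called. Between MamBo38 and MamBo89, 5 of 8 tested members were called, against 41.9% of all 13782 genes tested, and the values of 4 of 8 did not overlap between the groups, against 59.3%. Of these, 1 was higher in MamBo38 (Fgf7), against 19.9% of all genes, and 4 were lower (Fgfr1, Fgfr3, Fgf2 and Fgfbp1), against 22.0%. Between MamBo43 TRT and untreated MamBo43, 4 of 8 were called, against 29.1% of all genes, with Fgf7 higher (13.6% of all genes) and Fgfr1, Fgf1 and Fgfbp1 lower (15.5%). There 7 of 8 did not overlap, against 88.5%, as 1 library forms a group. The median log2 fold change over the tested members was -1.22 in the first comparison and -0.66 in the second, beside -0.07 and 0 over all genes. Untreated MamBo43 and MamBo89 differed in 4 of 8 members, against 18.9% of all genes, with Fgfr2, Fgf1 and Fgf7 higher (11%) and Fgfr3 lower (7.86%), and 5 of 8 did not overlap, against 60.5%.

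The HER2-negative lines were also set against each other. Between MamBo43 TRT and MamBo38, 3 of 8 were called, against 20.4% of all genes, and Fgfr2, Fgf2 and Fgfbp1 were all higher in MamBo43 TRT (10.2%), while 4 of 8 did not overlap, against 58.7%. MamBo38 against untreated MamBo43 gave 6 of 8 (35.9% of all genes), with Fgf7 higher (17.4%) and Fgfr1, Fgfr2, Fgf1, Fgf2 and Fgfbp1 lower (18.5%), and 7 of 8 without overlap (81.1%). MamBo43 TRT against MamBo89 gave 5 of 8 (39.0%), and 5 of 8 without overlap (64.2%). In the latter pair Fgfr2 and Fgf7 were higher (18.1%) and Fgfr1, Fgfr3 and Fgfbp1 lower (20.8%). The pairs share libraries, so their counts are not independent.

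**Figure D2:**
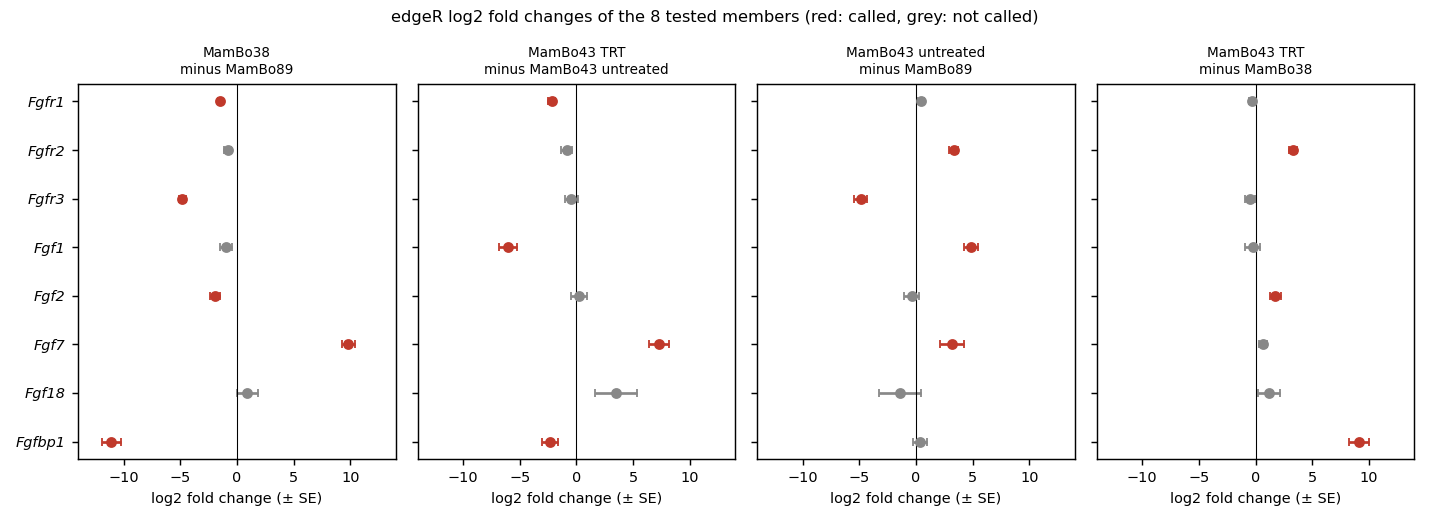
Log2 fold change ± SE of the 8 tested members in 4 pairs of groups (red, called at adjusted p under 0.1 and an absolute value of at least 1; grey, not called). Fgf7 and Fgfbp1 show the widest differences between MamBo38 and MamBo89, and Fgf18, at few counts, has the widest SE.

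All HER2-negative libraries (n = 6) were compared with all HER2-positive ones (n = 5). Of 7 members tested, 5 were called, against 32.8% of 12364 genes, and 3 did not overlap, against 34.9%. Fgf7 was higher (15.8% of all genes) by 8.58 ± 0.76 on the log2 scale (adjusted p = 1.04e-05), and Fgfr1, Fgfr3, Fgf1 and Fgfbp1 were lower (17%). Fgfr1 fell by 1.68 ± 0.19 (adjusted p = 3.63e-05) and Fgfbp1 stood at -3.64 ± 1.47 (adjusted p = 0.0566). The Fgfbp1 call was lost when tested against the fold change minimum (adjusted p = 0.167) and with the tumor of origin as a term (-3.92). It was also lost with only the 8 libraries that share a name code (-2.63, adjusted p = 0.115). The Fgfr3 value, -4.68 ± 0.70 (adjusted p = 0.000249), was -0.10 with the tumor of origin as a term. The Fgf1 value, -3.74 ± 1.09 (adjusted p = 0.0137), was -1.03 without the untreated MamBo43 library (adjusted p = 0.0981). Fgfbp1 stood at -6.05 without MamBo43 TRT replicate 1, and Fgf7 at 10.07 without untreated MamBo43. With the tumor of origin as a term, Fgf7 stood at 6.90 and Fgf1 at -5.87. Tumor A gave HER2-positive libraries only, so this term sets the HER2-negative libraries against the single untreated MamBo43 library. Every value with this term, those of Fgfbp1 and Fgfr3 included, rests on that library. Fgf2 was not called (-1.01 ± 0.52, adjusted p = 0.120), but it was without the AG3 library (-1.21, adjusted p = 0.0617) or without MamBo43 TRT replicate 1 (-1.47, adjusted p = 0.0203). Fgfr2 differed by -0.35 ± 0.96 (adjusted p = 0.779), with MamBo43 highest on both sides, and its direction turned between alternatives, none of them called. It was 1.139 without untreated MamBo43, 0.47 with the name code as a term and -2.18 with the tumor of origin as a term.

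The response of each line to trastuzumab was compared next. Within MamBo89 and within MamBo38 (2 treated against 2 untreated libraries each), 0 of 8 members and 0% of all genes were called by edgeR, while 3 and 4 of 8 did not overlap, against 26% and 40.2% of all genes. At an unadjusted p under 0.05, 724 of 13782 genes passed in MamBo89 and 230 in MamBo38, and DESeq2 called 29 and 1. Fgf1 in MamBo89 had the smallest unadjusted p of the members, with 1.51 and 1.20 CPM untreated and 0.583 and 0.381 treated (log2 fold change -1.48 ± 0.55, adjusted p = 0.721). Without MamBo89 replicate 2, which leaves the AG3 library as the only untreated one, Fgf1 (-1.64, adjusted p = 0.0989) and Fgf2 (1.98, adjusted p = 0.0412) were called, among 2148 genes. Fgf7 in MamBo38 was 72.4 and 85.5 CPM untreated and 46.8 and 49.2 treated (log2 fold change -0.73 ± 0.44, adjusted p = 1), and 1 of the untreated libraries carries another code than the treated ones.

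The difference between the trastuzumab effects in MamBo43 and MamBo89 was tested as an interaction. It was called for 3 of 8 members, against 22.2% of all genes. It was -2.56 ± 0.42 for Fgfr1 (adjusted p = 0.00896), -4.56 ± 0.83 for Fgf1 (adjusted p = 0.0129) and 7.61 ± 2.33 for Fgf7 (adjusted p = 0.0595), all on the log2 scale. The Fgf7 call rests on 0 to 2 counts per MamBo89 library. It was lost without MamBo89 replicate 1 (7.93) or 2 (7.12), which leaves a single untreated MamBo89 library. Leaving out another library gave 6.64 to 11.02, except for the untreated MamBo43 library, without which the interaction cannot be fitted. For Fgfbp1 it was -2.01 ± 0.99 (adjusted p = 0.198), with -3.83 without MamBo43 TRT replicate 1 and -1.22 without MamBo43 TRT replicate 2. For Fgf2 it was -0.65 ± 0.89 (adjusted p = 0.669), with -1.78 without MamBo89 replicate 2 and -0.05 without MamBo89 replicate 1.

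To compare genes with each other, CPM were divided by the length of each gene's exons in kilobases. Fgfr1 made up 96.8 to 99.7% of the summed per-length level of the 4 receptors in every library. Its mean per-length level was 99.3 ± 22.3 CPM per kb (SD, n = 4) in MamBo89, 131 in untreated MamBo43, 28.6 ± 4.07 (n = 2) in MamBo43 TRT and 35.6 ± 5.85 (n = 4) in MamBo38. Fgfr2 reached its highest share of the receptors in MamBo43 TRT, at 2.02 and 2.84%, while it was 0.141 to 0.302% in MamBo38. Fgfr3 made up 1.65 to 2.20% in MamBo89.

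The summed per-length level of the secreted ligands ran the other way. It was 2.26 to 3.81 CPM per kb in MamBo89, 7.38 in untreated MamBo43, 23.7 and 54.6 in MamBo43 TRT and 34.6 to 48.0 in MamBo38. The receptor sum was 72.2 to 128 CPM per kb in MamBo89, 132 in untreated MamBo43, 26.6 and 32.2 in MamBo43 TRT and 29.3 to 43.3 in MamBo38. HER2-negative libraries thus held more ligand and less receptor RNA than every HER2-positive library. Fgf7 made up 38.2 to 65.8% of the ligand sum in MamBo38 and 66.1 and 84.6% in MamBo43 TRT, but 0 to 2.61% in the HER2-positive libraries. Fgf1 made up 65.6% in untreated MamBo43. Fgf21, an endocrine FGF that acts with the co-receptor beta-Klotho, made up 26.5 to 52.9% in MamBo38 and 12.6 to 65.9% of the much lower sum in MamBo89.

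**Figure D3:**
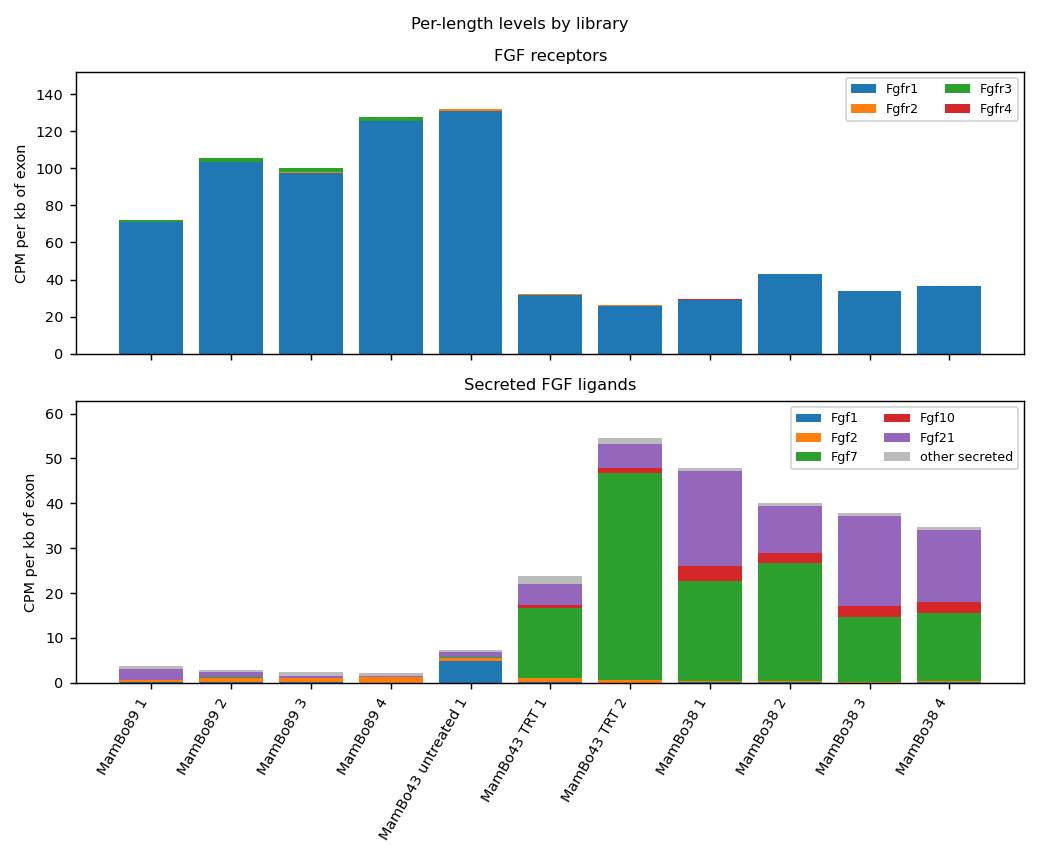
Summed per-length level (CPM per kb of exon) of the 4 receptors (top) and of the secreted ligands (bottom) in each library, stacked by gene. Fgfr1 fills the receptor bars in all libraries, and Fgf7 and Fgf21 fill most of the ligand bars in MamBo38 and MamBo43 TRT.

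Other genes of the FGF pathway were read from lists by role. Of 18 other FGF genes, 9 passed the filter, and between MamBo38 and MamBo89 3 were higher (19.9% of all genes), 4 lower (22.0%) and 2 not called (median -0.75 on the log2 scale, beside -0.07 over all genes). Fgf10, the second ligand of epithelial FGFR2, had 0 counts in all MamBo89 and the untreated MamBo43 libraries. It reached 16.2, 9.79, 11.6 and 11.3 CPM in MamBo38, at least 78.6-fold higher than 3 counts per MamBo89 library (adjusted p = 2.21e-06). In MamBo43 TRT it reached 2.94 and 4.76 CPM, at least 32.8-fold higher than the untreated library (adjusted p = 0.00107). Fgf21 rose from a mean of 1.04 CPM in MamBo89 to 16.1 in MamBo38 (log2 fold change 3.93 ± 0.58, adjusted p = 0.000169), and its change within MamBo43, 2.22 ± 1.01, was not called (adjusted p = 0.121). Fgf14 was also higher in MamBo38, at a mean of 0.678 CPM against 0 counts (at least 4.36-fold, adjusted p = 0.00066).

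Fgf11, Fgf12, Fgf13 and Fgf14 encode FGF-like proteins that stay inside the cell, and 3 of them were lower in MamBo38. Fgf13 averaged 8.10 CPM in MamBo89 and had 0 counts in MamBo38, at least 53.7-fold lower (adjusted p = 7.78e-06). Fgf12 was at 0 counts in MamBo38 and at a mean of 0.295 CPM in MamBo89 (at least 1.95-fold, adjusted p = 0.0564), where 22 counts came from replicate 2 and 0 to 2 from each other MamBo89 library. Fgf9, a secreted ligand, was lower too, by a ratio of 82.1 on 78 counts against 1 (counting interval 14.3 to 3284, adjusted p = 0.00228), although the AG3 library held 1 count. Within MamBo43, Fgf13 rose by a ratio of 9.07 (counting interval 2.32 to 78.04, adjusted p = 0.0343), and 2 of 9 genes of this list were called, against 29.1% of all genes, both higher (median 2.22, beside 0 over all genes). Fgf14 held 0.157 CPM untreated and 0.931 and 0.384 in MamBo43 TRT (log2 fold change 2.01 ± 1.08, adjusted p = 0.197). Fgf9 held 0 counts untreated and 4 and 1 in MamBo43 TRT (adjusted p = 0.324), and Fgf12 held 1 count untreated and 0 in MamBo43 TRT (adjusted p = 0.597).

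Of 10 tested co-receptors and binding partners, 5 were higher and 4 lower in MamBo38 than in MamBo89 (median 1.002), and 4 were higher and 4 lower in MamBo43 TRT than in untreated MamBo43 (median -0.25), against 41.9% and 29.1% of all genes called in either direction. The fibronectin and leucine-rich protein Flrt2, which binds FGF receptors, rose in both comparisons, by 4.53 ± 0.47 (adjusted p = 1.29e-05) and 3.43 ± 0.85 (adjusted p = 0.0124) on the log2 scale. Flrt3 rose by 2.42 ± 0.47 in MamBo38 (adjusted p = 0.00108) but fell by 2.90 ± 0.75 in MamBo43 TRT (adjusted p = 0.0150). The heparan sulfate proteoglycan glypican-1 (Gpc1) rose by 2.88 ± 0.19 (adjusted p = 6.02e-07) and 1.301 ± 0.33 (adjusted p = 0.0145). The syndecans Sdc3 and Sdc4, which also carry heparan sulfate, fell in both, with Sdc3 at -3.51 ± 0.38 (adjusted p = 1.92e-05) and -2.60 ± 0.58 (adjusted p = 0.00759). Sdc4 fell by 1.86 ± 0.19 (adjusted p = 1.12e-05) and 1.48 ± 0.30 (adjusted p = 0.0053). Fgfrl1, a receptor-like protein without a kinase, fell by 2.20 ± 0.28 (adjusted p = 6.44e-05) and 2.36 ± 0.45 (adjusted p = 0.00383). Within MamBo43, Sdc2 rose by 1.67 ± 0.47 (adjusted p = 0.0219), and in MamBo38 it stood at 0.73 ± 0.25 (adjusted p = 0.0259), short of the fold change asked for. Flrt1 had 0 counts in untreated MamBo43 and a mean of 0.419 CPM in MamBo43 TRT (at least 3.57-fold higher, adjusted p = 0.0178), and it rose by 1.62 ± 0.51 in MamBo38 against MamBo89 (adjusted p = 0.0169).

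Of the 16 adaptors and signal transducers, 3 were called between MamBo38 and MamBo89 and 1 within MamBo43, against 41.9% and 29.1% of all genes. Between MamBo38 and MamBo89, Frs2, the adaptor docked at FGF receptors, rose by 2.38 ± 0.12 on the log2 scale (adjusted p = 8.24e-08). In MamBo43 TRT, Gab1 alone was called, and it fell by 1.25 ± 0.20 (adjusted p = 0.00158), while in MamBo38 it stood at -0.91 ± 0.12 (adjusted p = 8.88e-05). Frs2 stood at 0.71 ± 0.20 in MamBo43 TRT (adjusted p = 0.0214).

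Of 10 tested feedback inhibitors, 2 were higher and 2 lower in MamBo38 than in MamBo89 (median 0.34), and 2 were lower in MamBo43 TRT (median -0.49), against 41.9% and 29.1% of all genes called in either direction. Dusp6, a phosphatase of ERK, fell in both, from 446.9 to 765 CPM in MamBo89 to 160 to 231 in MamBo38, by 1.57 ± 0.19 on the log2 scale (adjusted p = 4.27e-05). In MamBo43 TRT it stood at 107 and 108 CPM against 338 untreated, and fell by 1.65 ± 0.31 (adjusted p = 0.00353). Dusp5 fell by 1.25 ± 0.35 (adjusted p = 0.00947) and 1.42 ± 0.58 (adjusted p = 0.0864). Il17rd, also called Sef, rose by 4.75 ± 0.30 in MamBo38 (adjusted p = 3.94e-07) and Spry4 by 1.16 ± 0.29 (adjusted p = 0.00458), while in MamBo43 TRT they stood at -0.20 ± 0.42 (adjusted p = 0.755) and 0.68 ± 0.50 (adjusted p = 0.331).

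All 7 ETS and early response genes were called between MamBo38 and MamBo89, 3 higher and 4 lower (median -1.04), against 41.9% of all genes, and 5 of 7 were called within MamBo43, against 29.1%. Fosl1, an AP-1 subunit, rose by 6.90 ± 0.59 on the log2 scale (adjusted p = 3.25e-06) and Myc by 1.58 ± 0.16 (adjusted p = 1.40e-05). Etv1 rose by 7.04 ± 0.31 (adjusted p = 4.77e-08), whereas the related Etv4 fell by 1.43 ± 0.12 (adjusted p = 3.51e-06) and Etv5 by 1.04 ± 0.15 (adjusted p = 0.000117). Egr1 fell by 1.25 ± 0.24 (adjusted p = 0.00107) and Ccnd1 by 1.28 ± 0.40 (adjusted p = 0.0158). Within MamBo43, Fosl1 rose by 4.39 ± 1.005 (adjusted p = 0.00894) and Myc by 2.26 ± 0.31 (adjusted p = 0.000692). Etv4 (-1.14 ± 0.20, adjusted p = 0.00258), Etv5 (-1.49 ± 0.24, adjusted p = 0.00161) and Egr1 (-1.59 ± 0.40, adjusted p = 0.0134) fell there. Etv1 was already at 54.5 CPM in untreated MamBo43, and stood at -0.41 ± 0.39 in MamBo43 TRT (adjusted p = 0.454). Ccnd1 stood at -0.54 ± 0.67 there (adjusted p = 0.570).

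Of 12 heparan sulfate enzymes, 2 were higher and 5 lower in MamBo38 than in MamBo89 (median -0.56), and 1 was higher and 2 lower in MamBo43 TRT (median -0.16), against 41.9% and 29.1% of all genes called in either direction. Heparanase (Hpse), which cleaves heparan sulfate chains, held 2 counts in the 4 MamBo89 libraries together and a mean of 36.2 CPM in MamBo38, a ratio of 1413 (counting interval 391 to 11670, adjusted p = 2.07e-08). It rose by 5.89 ± 0.53 on the log2 scale in MamBo43 TRT (adjusted p = 8.17e-05). The sulfotransferases Hs3st1 and Hs6st2 were at 0 counts in MamBo38, at least 101-fold (adjusted p = 2.79e-06) and 31.0-fold (adjusted p = 0.000103) lower than in MamBo89. Within MamBo43, Hs3st1 fell by 1.71 ± 0.52 (adjusted p = 0.0425) and Hs6st1 by 1.25 ± 0.35 (adjusted p = 0.0212), and Hs6st1 also fell by 2.02 ± 0.22 between MamBo89 and MamBo38 (adjusted p = 1.69e-05). Hs6st2 was at 0 counts in untreated MamBo43 and at a mean of 0.134 CPM in MamBo43 TRT. The epimerase Glce rose by 1.35 ± 0.35 in MamBo38 (adjusted p = 0.00599) and stood at 1.004 ± 0.62 in MamBo43 TRT (adjusted p = 0.242). The sulfatase Sulf1 was nearly absent from both MamBo89 and MamBo38, on 10 counts against 1 (ratio 10.5, counting interval 1.498 to 457, adjusted p = 0.0132), and in MamBo43 it held 7.94 CPM untreated and 5.05 and 4.03 in MamBo43 TRT (log2 fold change -0.81 ± 0.64, adjusted p = 0.362).

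Esrp1 and Esrp2, which favour the epithelial form of FGFR2, were both lower in MamBo38 than in MamBo89. Esrp1 held 316 to 479 CPM in MamBo89, 394 in untreated MamBo43, 350 and 82.3 in MamBo43 TRT, and 1 count in all 4 MamBo38 libraries together (adjusted p = 1.28e-07 against MamBo89). Esrp2 held 54.2 to 66.4 CPM in MamBo89, 46.1 in untreated MamBo43, 9.65 and 4.18 in MamBo43 TRT and 0.0759 to 0.417 in MamBo38. Within MamBo43, Esrp2 fell by 2.74 ± 0.47 on the log2 scale (adjusted p = 0.00227), and Esrp1 stood at -0.87 ± 0.59 (adjusted p = 0.292). Counts per gene do not separate the splice forms of Fgfr2, which were not analysed here.

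**Figure D4:**
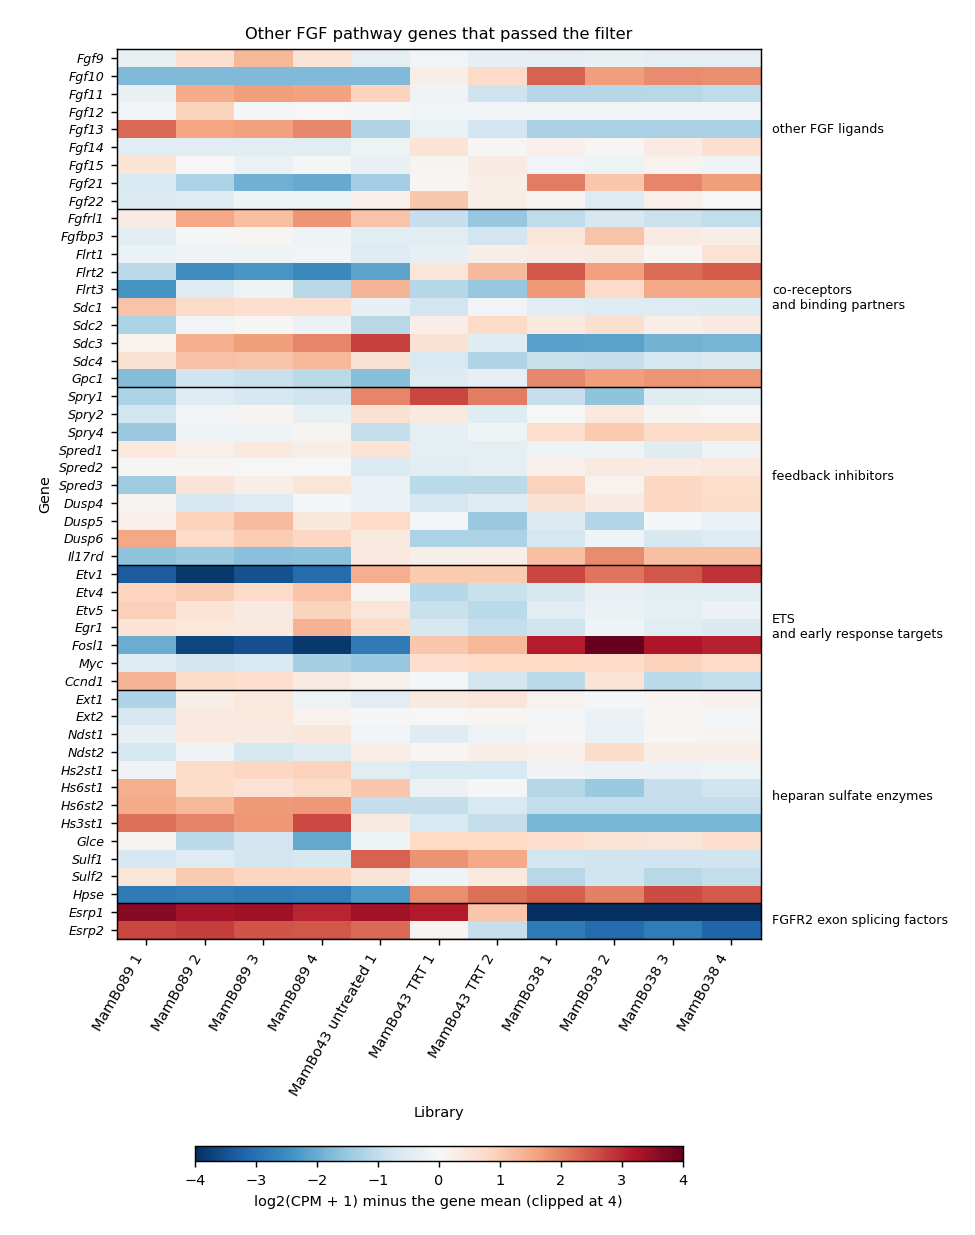
Level of the tested FGF pathway genes outside the 9 members in each library, as log2(CPM + 1) minus the mean of the gene over all 11 libraries (red higher, blue lower, clipped at 4), with adaptors left out. Etv1, Fosl1 and Esrp1 run through most of the scale, and MamBo43 TRT lies with MamBo38 for Hpse but with MamBo89 for Esrp1 in replicate 1.

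The genes with the most similar pattern to each member were found over the 11 libraries among 13782 genes, by the root mean square difference of centred log2(CPM + 1) values, which is smaller for more similar genes. They were Ppp1r13b (0.202) and Zfp24 (0.216) for Fgfr1, Sulf1 (0.229) and Npr3 (0.323) for Fgfr2, and Bcl11a (0.208) and Lhx5 (0.294) for Fgfr3. For the ligands they were Unc5cl (0.252) and Clic6 (0.289) for Fgf1, Shank1 (0.247) and 2200002D01Rik (0.255) for Fgf2, and Apbb1ip (0.347) and Adm (0.377) for Fgf7. For Fgfbp1 they were Ap1m2 (0.265) and Slc44a3 (0.270). The pattern of Fgf18, which rests on few counts, was closest to those of Ces2e (0.111) and Noxred1 (0.116).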

How the data were processed

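RNA of 11 cultures was made into TruSeq RNA v2 libraries, which keep no strand, and read over 75 nucleotides in single-end mode on a NextSeq instrument. The authors aligned reads with STAR 2.5 to mm10 and estimated counts with RSEM 1.3.0, and deposited the expected counts per gene, all of which were whole numbers, so that no rounding was needed. The tools are named in the methods and in the submitters' processing notes. No column was left without a sample.

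Groups came from the labels, and the 9 members and all gene lists were chosen with earlier results of these data known. Genes were kept by filterByExpr (minimum count 10, minimum total 15), scaled by TMM and tested with glmQLFit and glmQLFTest of edgeR 4.0.16 in R 4.3.3, with Benjamini-Hochberg adjustment over all genes tested. Pairs of groups were tested in a fit of 4 groups, HER2 status in a fit of 2 groups, and trastuzumab within lines in a fit of 6 groups. The SE is the absolute log2 fold change over the square root of F. Folds against groups at 0 were set against 3 counts per library and are lower bounds. Ratios against groups with at most 3 counts per library were taken from summed counts, with exact 95% intervals that cover counting error only, since reads carry no molecular identifiers. Of the pathway lists, the text names up to 3 called genes in each direction with the largest change between MamBo38 and MamBo89 or within MamBo43, and gives each in both comparisons. Some genes that this rule names are not reported here. Total counts per library ranged from 17040454 to 27127662.

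Gene positions and exon lengths are from GENCODE M21 on GRCm38, and promoter windows from RefSeq on GRCm38.p6. In 13 pairs of replicates, the chi-square per degree of freedom was 8.18 to 189, so no pair was within sampling noise. Alternatives were DESeq2 1.42.0, RLE scaling, other filters and thresholds, glmTreat, robust estimation, the library code or the tumor of origin as a term, subsets of libraries, and leaving out each library.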

Additional observations from a re-analysis of the deposited data

Results flagged for a closer look

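Of 32 sets of libraries examined, 5 held a library far from the others. A rate of about 1 in 20 by chance holds for libraries of a single kind. These 5 sets pool lines and share libraries, so that rate does not apply to them. Among the 5 HER2-positive libraries, untreated MamBo43 stood apart for Fgfr2 at 13.2 CPM (others 0.932 to 1.75), for Fgf1 at 26.4 CPM (others 0.381 to 1.51) and for Fgf7 at 0.626 CPM (others 0 to 0.109). It is also the only library of its line in that set. Among the 6 HER2-negative libraries, MamBo43 TRT replicate 2 stood apart for Fgf7 at 150 CPM (others 46.8 to 85.5), with a gap that only just passed the limit, and MamBo43 TRT replicate 1 for Fgfbp1 at 28.7 CPM (others 0 to 4.87).

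The effect of trastuzumab differed between MamBo43 and MamBo89 by the interaction test of edgeR for Fgfr1 (-2.56, adjusted p = 0.00896), Fgf1 (-4.56, adjusted p = 0.0129) and Fgf7 (7.61, adjusted p = 0.0595) on the log2 scale. The MamBo43 side of each rests on 1 untreated library.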

How the results depend on the processing

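No paired analysis was run, as the labels give no replicate numbers that tie libraries across groups. The trastuzumab schedules recur across the lines, and matching libraries by schedule was not tested. No fold change of a member reversed under any alternative while called. With each library left out in turn, the number of members called was 5 to 6 for HER2-negative against HER2-positive, 5 to 6 for MamBo38 against untreated MamBo43, 5 to 6 for MamBo38 against MamBo89, 3 for MamBo43 TRT against MamBo38, 4 for MamBo43 TRT against untreated MamBo43, 5 to 6 for MamBo43 TRT against MamBo89, 3 to 4 for untreated MamBo43 against MamBo89, 2 to 4 for the interaction, 0 to 2 for trastuzumab within MamBo89 and 0 within MamBo38. Asking for 10 or more counts in each library leaves 3 members to test and therefore gave 1 for HER2 status, 3 for MamBo38 against untreated MamBo43, 2 for MamBo38 against MamBo89, 1 within MamBo43, 2 for MamBo43 TRT against MamBo89, 1 for untreated MamBo43 against MamBo89 and 1 for the interaction. With the tumor of origin as a term, HER2 status rests on the single untreated MamBo43 library, so no count is given for it. With only the 8 libraries that share a name code, 3 were called for HER2 status. The cause was not tested.

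Over single members, 775 fold changes kept their side of the thresholds, 27 lost a call and 4 gained 1 outside the settings that leave out a library, and 804 kept it, 6 lost and 13 gained a call within them. Fgfbp1 within MamBo43 lost its call when tested against the fold change minimum (adjusted p = 0.1175) or in a fit of these 2 groups (adjusted p = 0.158), and Fgf1 for HER2 status with those 8 libraries only (adjusted p = 0.132). DESeq2 gave no adjusted p for Fgf1 there. With those 8 libraries only, Fgfbp1 for HER2 status also lost its call (-2.63, adjusted p = 0.115). Over all genes, that stricter count minimum moved the genes called between MamBo38 and MamBo89 from 5772 to 3038, and for trastuzumab within MamBo89 DESeq2 called 29 and leaving out replicate 2 gave 2148, where 0 were called. Depth limits Fgfr4, Fgf18 and the low side of Fgf7 and Fgfbp1, which rest on a few counts.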
